A study of Mus musculus with 2 samples.

Results

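The cells described here are mouse regulatory T (Treg) cells that carried S100a4 transcripts together with transcripts of Ccr2 or Il1rl1, the combination by which Treg cells of a tissue type were picked out. A cell was a member when it held at least 2 unique molecular identifiers (UMIs, each standing for 1 captured transcript) of S100a4, at least 1 UMI of Ccr2 or Il1rl1, no UMI of Igfbp4, and transcripts of at most 1 of the 3 genes Ccl5, Il10 and Klrg1. In all, 2036 of 23896 kept cells met the rule: 624 of 12217 in the Mito-high library (5.11%, 95% Clopper-Pearson interval 4.72 to 5.51%) and 1412 of 11679 in the Mito-low library (12.1%, 11.5 to 12.7%). The study's title concerns copper and the suppressive capacity of Treg cells. Treg cells were stained with MitoTracker, a dye taken up by mitochondria, and flow sorting separated a dye-high group (Mito-high) from a dye-low group (Mito-low). Each group gave 1 library, made with the Chromium Single Cell 5′ V2 chemistry of 10x Genomics. The sources used here do not give the tissue, strain, genotype, sex or age of the mice, how many were pooled or how the Treg cells were first isolated. With 1 library per group nothing could be tested against a spread between replicates. All intervals are 95% intervals and cover counting error only, and a ratio of at least 1.5-fold marks a size and not a call.

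Treg cells restrain other immune cells and depend on the transcription factor Foxp3. Some of them leave lymph nodes and spleen and settle in barrier and metabolic tissues, where they are known for the receptor ST2, the product of Il1rl1, which binds the alarm cytokine IL-33, and for the repair factor amphiregulin. Ccr2 encodes a chemokine receptor for attraction into tissue, and S100a4 and S100a6 encode small calcium-binding proteins of motile and previously activated cells.

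S100a4 and S100a6 are neighbours on chromosome 3, with 6836 bases between the end of S100a4 (90603771 to 90606045) and the start of S100a6 (90612882 to 90624181) on the plus strand of mm10. Their start regions are shown because S100a6, which the rule did not use, followed S100a4 in the cells. Both annotated start regions of Il1rl1 are shown because its transcripts admitted members to the group. Each window runs from 250 bases before to 50 bases after a start, from RefSeq on GRCm38.p6. Capitals mark matches, on either strand, to the letters TATAAA, known as the TATA box, or AGATAA, which holds the core bound by GATA factors and reads TTATCT on the other strand.
S100a4, chr3:90603520-90603819, plus strand: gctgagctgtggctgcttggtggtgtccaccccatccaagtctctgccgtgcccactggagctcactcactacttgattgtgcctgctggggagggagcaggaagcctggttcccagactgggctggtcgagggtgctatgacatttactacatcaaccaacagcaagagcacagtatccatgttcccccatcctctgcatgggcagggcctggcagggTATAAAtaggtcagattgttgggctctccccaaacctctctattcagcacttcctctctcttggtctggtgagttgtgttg
S100a6, chr3:90612644-90612943, plus strand: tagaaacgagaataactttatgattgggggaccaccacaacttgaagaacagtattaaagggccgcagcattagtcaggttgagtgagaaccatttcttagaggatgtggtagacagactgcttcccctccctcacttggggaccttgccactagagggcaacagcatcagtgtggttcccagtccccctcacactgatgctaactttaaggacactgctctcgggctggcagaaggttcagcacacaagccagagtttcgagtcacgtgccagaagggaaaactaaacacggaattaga
Il1rl1 upstream start, chr1:40429320-40429619, plus strand: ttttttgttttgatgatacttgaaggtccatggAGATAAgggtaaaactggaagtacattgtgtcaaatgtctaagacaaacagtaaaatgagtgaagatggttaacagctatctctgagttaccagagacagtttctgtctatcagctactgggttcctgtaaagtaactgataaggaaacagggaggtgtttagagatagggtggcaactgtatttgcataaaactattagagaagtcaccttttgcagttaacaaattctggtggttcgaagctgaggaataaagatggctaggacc
Il1rl1 downstream start, chr1:40439379-40439678, plus strand: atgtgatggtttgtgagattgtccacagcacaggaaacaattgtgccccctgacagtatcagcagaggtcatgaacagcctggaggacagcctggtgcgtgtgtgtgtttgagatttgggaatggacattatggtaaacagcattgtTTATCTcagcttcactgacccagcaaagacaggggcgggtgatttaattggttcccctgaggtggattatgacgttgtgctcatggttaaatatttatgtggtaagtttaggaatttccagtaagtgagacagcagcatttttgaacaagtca
The S100a4 window held TATAAA at bases 220 to 225, which 13.6% of 32851 such windows hold. The S100a6 window held no match to TATAAA, to AGATAA or to the AP-1 letters TGANTCA. The Il1rl1 windows held AGATAA at bases 34 to 39 and TTATCT at bases 148 to 153, and 11.2% of all windows hold AGATAA on either strand. A match describes the letters only.

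The libraries differed in depth. The Mito-high library held 89996794 UMIs over 12352 barcodes and the Mito-low library 60688904 UMIs over 11901 barcodes. Kept cells had at least 500 detected genes and at most 20% of UMIs from mitochondrially encoded (mt-) genes, and their median depth was 6132 UMIs in the Mito-high library and 4668 UMIs in the Mito-low library. Members were deeper than the other kept cells, with medians of 7862 against 6038 UMIs in Mito-high and 5022.5 against 4615 UMIs in Mito-low. Of 38 cell barcodes found in both libraries, 0 belonged to Mito-high members and 3 to Mito-low members. UMIs beyond 2 times the library's median were found in 19.7% of members against 10.2% of other cells in Mito-high, and in 9.70% against 6.30% in Mito-low. No doublet caller was used, and the part of doublets in the results was not tested.

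The label of the members as Treg cells was checked on markers outside the rule. The 8 T cell markers summed to 5665 counts per 1000000 UMIs (CPM) in members and 5078 CPM in other cells of Mito-high, and to 5571 and 5809 CPM in Mito-low. The 5 Treg markers Foxp3, Il2ra, Ikzf2, Ctla4 and Tnfrsf18 summed to 3153 CPM in members and 2803 CPM in other cells of Mito-high, and to 3824 and 4029 CPM in Mito-low. Foxp3 was seen in 22.0% of members and 15.7% of other cells in Mito-high, and in 22.3% and 16.7% in Mito-low. In 22 B cell-like cells of Mito-high (median 3134.5 UMIs) it was seen in 0, which allows a share of up to 13.6% by a limit of 3 counts and of 15.4% by the Clopper-Pearson interval. Thinned to 2000 UMIs per cell, the Foxp3 shares were 8.03% against 5.57% in Mito-high and 8.65% against 7.61% in Mito-low. Foxp3 was thus seen somewhat more often in members, with overlapping intervals after thinning in Mito-low.

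Markers of other cell types were then summed over the members. The 6 markers of conventional CD4 T cells include Igfbp4, which members lack by rule. Mito-high members had a sum of 295 CPM, below the 370 CPM of other cells. Mito-low members had 581 CPM, above the 413 CPM of other cells. Most of the members' sum was Il7r, the interleukin-7 receptor gene: 246 against 143 CPM (Mito-high) and 537 against 332 CPM (Mito-low). Whether members include such cells was not tested. The 6 natural killer cell markers summed to 1.06 CPM or less in members of either library, with Ncr1 at 0, and the 2 CD8 markers to 10.8 CPM in Mito-high members and 5.73 CPM in Mito-low members. The 14 myeloid markers summed to 160 and 82.1 CPM in members and other cells of Mito-high and to 137 and 106 CPM in Mito-low, nearly all of it from Cst3, a protease inhibitor gene, while Cd14, S100a8 and S100a9 were at 0 in members. S100a4, S100a6, Ccr2 and Lgals3 are also myeloid genes. S100a8 and S100a9 held 1 and 0 UMIs in other Mito-high cells and 2 and 3 UMIs in other Mito-low cells. Their absence from members therefore could not bear on the label. Of the 14 markers, 9 were detected in Mito-high and 10 in Mito-low members, and Cst3 stood at 151 against 75.7 CPM and at 127 against 99.1 CPM. The 10 markers of type 2 innate lymphoid cells summed to 231 and 96.9 CPM in Mito-high and to 350 and 183 CPM in Mito-low. In members most of it came from Ly6a, which T cells carry too, with 175 CPM in Mito-high members and 303 CPM in Mito-low members. Ly6a was not the only higher one. Of 3 markers at 20 CPM or more in Mito-high members or other cells, 2 were at least 1.5-fold higher in members and 1 lower. In Mito-low 2 of 2 were higher. Over all such genes 15% were higher in Mito-high and 2.72% in Mito-low. The 9 B cell markers summed to 43.1 and 32.4 CPM in Mito-high and to 30.6 and 19.5 CPM in Mito-low. Cd79b, a chain of the B cell receptor, made up most of that in members, at 30.2 against 10.0 CPM in Mito-high and at 21.7 against 14.5 CPM in Mito-low. The 6 stromal and epithelial markers summed to 207 and 180 CPM in Mito-high and to 218 and 166 CPM in Mito-low, most of it from Pecam1, an adhesion molecule gene that T cells carry too, with Col3a1 and Krt8 at 0 in members. The part of such cells in the results was not tested.

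The genes that chose the members are given as a description. S100a4 stood at 3046 CPM in members and 160 CPM in other cells of Mito-high, and at 2111 and 443 CPM in Mito-low. Ccr2 stood at 215 and 2.99 CPM in Mito-high and at 218 and 11.2 CPM in Mito-low, and Il1rl1 at 161 and 12.5 CPM and at 217 and 35.8 CPM. A member held a median of 25 S100a4 UMIs in the Mito-high library (quartiles 13 to 38.25, highest 112) and of 9 in the Mito-low library (5 to 16, highest 86). Most members were therefore far from the threshold of 2 UMIs, with 5 or more S100a4 UMIs in 92.8% of Mito-high and 76.8% of Mito-low members. Ccr2 without Il1rl1 admitted 259 Mito-high members (41.5%) and 602 Mito-low members (42.6%), and Il1rl1 without Ccr2 176 (28.2%) and 565 (40.0%). Both receptors were found in 189 Mito-high members (30.3%) and in 245 Mito-low members (17.4%), with the deeper library holding the larger share. Free RNA can supply such UMIs: 4 of the 22 B cell-like cells held S100a4, 1 held Il1rl1, 0 held Ccr2 and 0 met the rule.

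Cells just inside and just outside the S100a4 threshold had like levels of S100a6, a gene the rule did not use. In Mito-high, 17 members with exactly 2 S100a4 UMIs had 1108 CPM of S100a6, and 39 cells with exactly 1 that met all else had 1063 CPM. In Mito-low the values were 762 CPM over 137 members and 684 CPM over 169 cells outside. Cells that met all but the receptor condition were more numerous in Mito-low than the members themselves (567 cells of Mito-high, 1710 of Mito-low), and had 1457 and 1017 CPM of S100a6. Cells that met all else but held 2 of Ccl5, Il10 and Klrg1 had 3395 CPM of S100a6 over 67 cells of Mito-high. In Mito-low they had 1711 CPM over 324 cells. Members as a whole had 3125 and 1529 CPM. By S100a6, the S100a4 threshold thus runs through cells of like levels, and S100a6 does not set members apart from cells with 2 of the 3 genes. Cells without either receptor had less S100a6 than members as a whole. Another gene did differ at the S100a4 threshold: Ccr7, a receptor gene, stood at 51.8 CPM inside and 209 CPM outside in Mito-high. In Mito-low it stood at 55.0 CPM inside and 36.4 CPM outside.

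**Figure D1:**
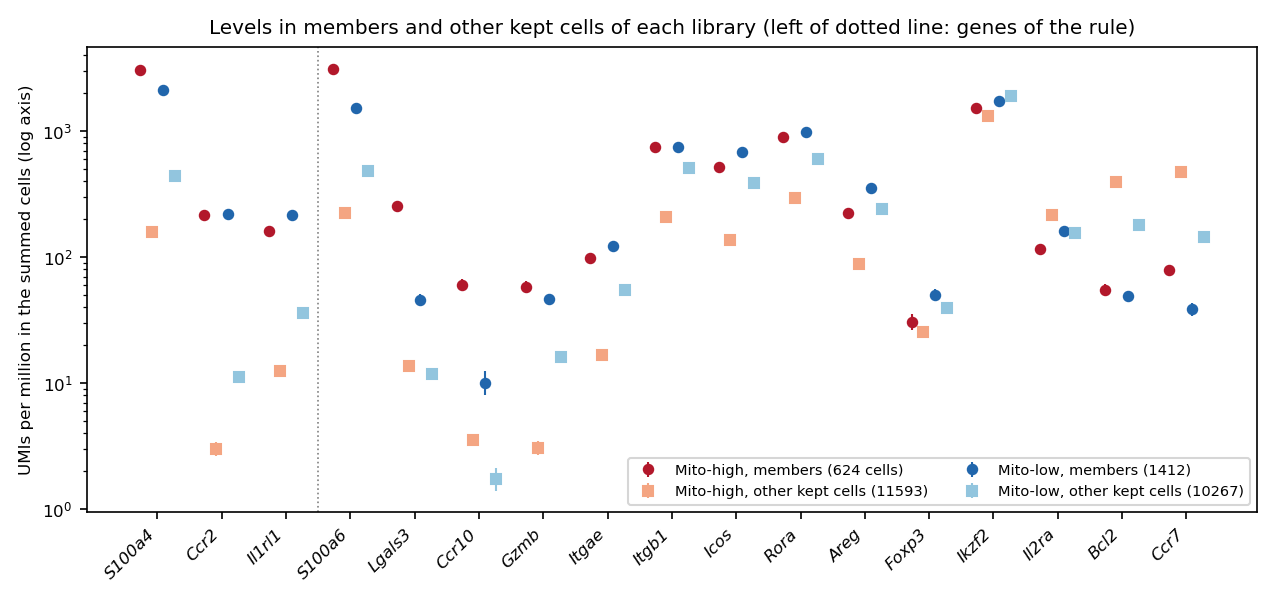
Levels of marker and other genes in members and in other kept cells of each library, in CPM on a log axis, with bars for exact Poisson 95% intervals of the summed UMIs. S100a6 stands at 3125 CPM in Mito-high members against 225 CPM in other Mito-high cells, and at 1529 against 482 CPM in Mito-low.

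Among members, S100a6 was higher in cells with more S100a4. Over Mito-high members with 2 to 4, 5 to 19 and 20 or more S100a4 UMIs (45, 210 and 369 cells), S100a6 stood at 1440, 2405 and 3698 CPM. Over Mito-low members of the same classes (327, 835 and 250 cells) it stood at 742, 1358 and 2834 CPM. The order was the same in both libraries, although members with many S100a4 UMIs were not much deeper: median UMIs were 8275, 7045 and 8199 in Mito-high and 4613, 4950 and 5642.5 in Mito-low. Lgals3, which encodes galectin-3, a sugar-binding protein, followed in Mito-low at 13.1, 38.5 and 99.9 CPM, and in Mito-high stood at 145, 136 and 329 CPM. Bcl2, a survival gene of resting T cells, ran the other way, at 116, 86.0 and 31.2 CPM in Mito-high and 79.3, 45.5 and 29.4 CPM in Mito-low. Foxp3 showed no such order, with 19.4, 39.7 and 27.4 CPM in Mito-high and 66.2, 45.7 and 47.2 CPM in Mito-low.

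Members were then set against all other kept cells of their own library, over genes at 20 CPM or more in either group and without the 7 genes of the rule. In Mito-high, 861 of 5738 genes (15%) were at least 1.5-fold higher in members and 486 (8.47%) at least 1.5-fold lower. This split depended on scaling: with TMM factors it was 599 higher and 691 lower, with the median ratio set to 0 it was 634 and 657, and leaving out immunoglobulin, T cell receptor, ribosomal and mt- genes it was 627 and 934. In Mito-low, 157 of 5772 genes (2.72%) were higher and 159 (2.75%) lower. The median log2 ratio over all genes was 0.11 in Mito-high and 0.01 in Mito-low. Of the 5419 genes measured in both libraries, 133 (2.45%) were higher in both and 105 (1.94%) lower in both. The 133 made up 17.8% of the 746 higher in Mito-high and 90.5% of the 147 higher in Mito-low, and the 105 made up 24.5% of 428 and 80.8% of 130. The cells that members were set against differed between the libraries. Cells with Igfbp4 and none of Ccl5, Il10 and Klrg1 made up 21.6% of kept Mito-high cells and 1.41% of kept Mito-low cells, and cells with at least 2 of those 3 genes and no Igfbp4 made up 1.35% and 13.1%. With other cells limited to those without Igfbp4 and with at most 1 of the 3 genes, 816 genes were higher and 495 lower in Mito-high, and 189 and 171 in Mito-low.

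**Figure D2:**
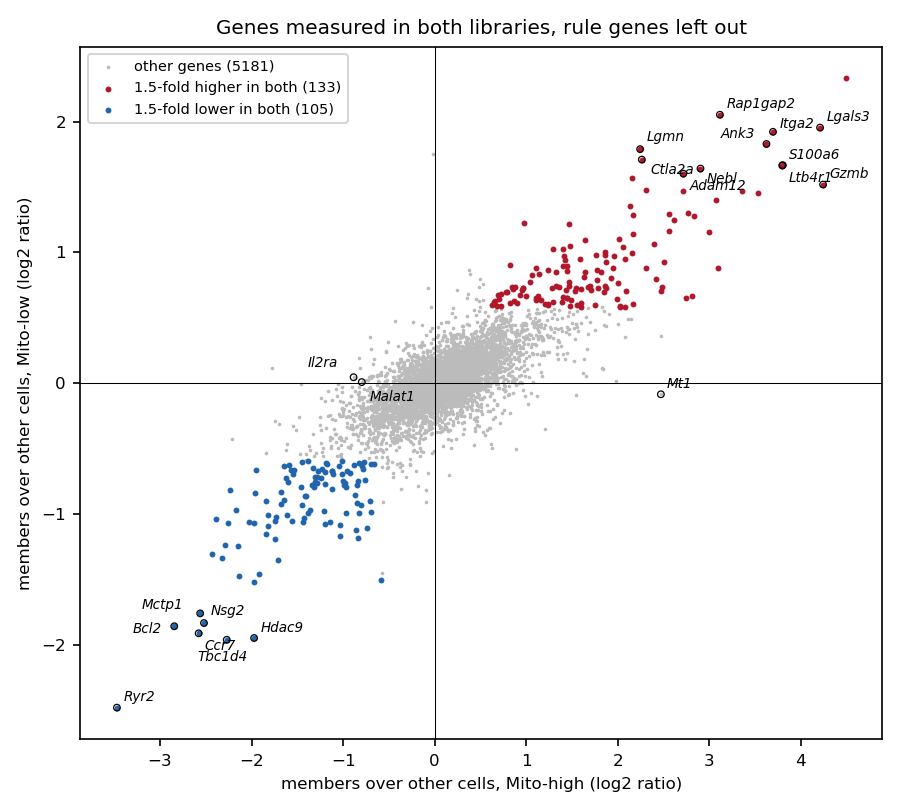
Log2 ratio of members over other cells in Mito-high (horizontal) and Mito-low (vertical) for the 5419 genes measured in both, each point a gene, with lines at 0 and genes at least 1.5-fold higher (red) or lower (blue) in both libraries in colour. Lgals3, at 4.21 and 1.96, and S100a6, at 3.80 and 1.67, lie at the upper right, and Bcl2, at −2.84 and −1.86, at the lower left.

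Lgals3 and S100a6 were among the genes with high ratios in both libraries. Lgals3 stood at 255 CPM in members and 13.8 CPM in other cells of Mito-high, and at 45.7 and 11.8 CPM in Mito-low (log2 ratios 4.21, interval 4.10 to 4.32, and 1.96, 1.76 to 2.14). S100a6 had log2 ratios of 3.80 (3.77 to 3.83) in Mito-high and 1.67 (1.63 to 1.70) in Mito-low. Both genes are among the markers given for these cells. Neither is a gene of the rule, but members were chosen with earlier results of these data known, so these ratios are a description. Lgals3 was detected in 50.5% of members and 2.98% of other cells of Mito-high, and in 13.7% and 3.80% in Mito-low. Thinned to 2000 UMIs, the shares were 26.5% against 1.43% and 7.01% against 2.05%. It was also seen in 1 of the 22 B cell-like cells.

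Of 13 measured genes of S100 proteins, annexins and galectins, 10 were higher by 1.5-fold or more in members of Mito-high and 0 lower, and in Mito-low 5 were higher and 0 lower. The median log2 ratio of the list was 1.30 in Mito-high and 0.54 in Mito-low, beside the 0.11 and 0.01 of all genes. S100a10, the partner of annexin A2 at the cell membrane, stood at 5161 against 969 CPM in Mito-high and at 2115 against 1219 CPM in Mito-low. S100a11, another calcium-binding protein gene, stood at 1505 against 224 CPM and at 879 against 559 CPM. Lgals1, which encodes galectin-1, stood at 2493 against 407 CPM and at 802 against 338 CPM. All 13 genes had a ratio above 1 in each library.

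Genes of the actin skeleton, motility and cell shape were higher alongside them. In Mito-high 22 of 29 measured genes were at least 1.5-fold higher and in Mito-low 11 of 28, with 0 lower in either, and the list's median log2 ratios were 1.06 and 0.45. Crip1, a LIM-domain protein gene, stood at 3658 against 832 CPM in Mito-high and at 2630 against 1029 CPM in Mito-low. Vim, which encodes the filament protein vimentin, stood at 1635 against 449 CPM and at 552 against 275 CPM. Lmna, a nuclear lamina gene, had log2 ratios of 2.16 (2.06 to 2.26) and 1.57 (1.48 to 1.66), closer to each other than those of the S100 genes. Nebl, which encodes an actin-binding protein, stood at 190 against 25.4 CPM and at 156 against 49.9 CPM.

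Homing receptors formed the next group. Of 12 measured chemokine and trafficking receptors besides Ccr2, 7 were at least 1.5-fold higher and 1 lower in Mito-high members, and 6 were higher and 2 lower in Mito-low members, with medians of 0.70 and 0.55. Ccr4, a receptor for entry into skin and other tissues, stood at 94.4 against 14.5 CPM in Mito-high and at 101 against 36.7 CPM in Mito-low. Cxcr6, a receptor of tissue-resident lymphocytes, stood at 27.0 against 2.34 CPM and at 30.5 against 11.1 CPM. Ccr10, a receptor for skin and mucosal ligands, stood at 60.2 against 3.54 CPM in Mito-high and at 10.1 against 1.73 CPM in Mito-low, below the 20 CPM floor there. With members limited to cells without any of Ccl5, Il10 and Klrg1, the log2 ratio of Ccr10 in Mito-low was 0.66 in place of 2.54. Ccr7, the receptor that guides T cells into lymph nodes, was the exception among receptors in Mito-high, at 79.2 against 474 CPM, and in Mito-low it stood at 38.5 against 145 CPM. Ccr8, a receptor of tissue Treg cells, was the other one lower in Mito-low, at 24.4 against 48.6 CPM, and stood at 14.1 against 19.7 CPM in Mito-high.

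Integrin chains, which anchor cells to matrix and epithelium, were split. Of 11 measured chains, 5 were at least 1.5-fold higher and 2 lower in Mito-high members, and 4 were higher and 1 lower in Mito-low members, with medians of 0.29 and −0.07. Itgae, whose protein binds the cadherin of epithelial cells, stood at 98.1 against 16.7 CPM in Mito-high and at 122 against 54.6 CPM in Mito-low. Itga2, a chain of a collagen receptor, stood at 26.1 against 2.02 CPM and at 22.8 against 6.02 CPM, and its partner Itgb1 at 756 against 210 CPM and at 746 against 509 CPM. Itgb8, whose protein activates transforming growth factor beta, was lower, at 11.5 against 26.7 CPM and at 22.8 against 48.3 CPM.

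Among the receptors for alarm cytokines, the partners of ST2 did not follow it. Il1rap, the shared signalling chain, stood at 19.8 against 21.9 CPM in Mito-high and at 20.8 against 24.5 CPM in Mito-low (log2 ratios −0.13, interval −0.44 to 0.13, and −0.23, −0.48 to −0.00). None of 8 measured genes of IL-33 receptor signalling besides Il1rl1 was 1.5-fold higher or lower in Mito-high, and none of 7 in Mito-low. The receptor for interleukin-18 was higher with both of its chains. Il18r1 stood at 212 against 47.7 CPM in Mito-high and at 297 against 149 CPM in Mito-low, and Il18rap at 42.2 against 5.30 CPM and at 56.9 against 25.5 CPM. Il9r, the interleukin-9 receptor, stood at 28.8 against 4.05 CPM and at 21.2 against 8.74 CPM.

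The tissue Treg programme, a list of 28 genes that shares members with several others, was higher in members of Mito-high and mixed in Mito-low. In Mito-high 14 of 23 measured genes were higher by 1.5-fold or more and 1 lower, with a median of 0.87, and in Mito-low 7 of 25 were higher and 3 lower, with a median of 0.20. Rora, a nuclear receptor of tissue lymphocytes, stood at 893 against 295 CPM in Mito-high and at 990 against 602 CPM in Mito-low. Icos, a costimulatory receptor, stood at 520 against 137 CPM and at 680 against 389 CPM. Areg, which encodes amphiregulin, stood at 224 against 87.6 CPM and at 355 against 240 CPM (log2 ratios 1.35 and 0.56). Areg and Icos were thus higher in the members of each library as a whole, by less in Mito-low. Icos stood at 511 CPM in Mito-high members with Ccr2 and no Il1rl1, and at 502 CPM in those with Il1rl1 and no Ccr2. In Mito-low the values were 757 and 640 CPM. Areg in members with Ccr2 and no Il1rl1 stood at 158 CPM in Mito-high, above other cells, and at 171 CPM in Mito-low, below them.

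Pparg, the lipid-sensing nuclear receptor of fat-tissue Treg cells, was low, at 7.59 against 1.12 CPM in Mito-high and at 11.9 against 8.92 CPM in Mito-low. Gata3, the transcription factor of type 2 immunity that is also active in tissue Treg cells, differed little, at 155 against 111 CPM and at 209 against 183 CPM. Prdm1, which encodes the effector factor Blimp-1, stood at 39.5 against 5.64 CPM and at 44.4 against 28.1 CPM. Of 21 measured effector transcription factors, 11 were higher and 2 lower in Mito-high, and of 23 in Mito-low 3 were higher and 2 lower, with medians of 0.76 and 0.08. Id3, an inhibitor of E proteins kept on in resting Treg cells, was lower in both, at 24.0 against 71.2 CPM and at 20.8 against 43.4 CPM. Penk, which encodes the opioid precursor proenkephalin and is known in tissue Treg cells, was lower in members of both libraries, at 18.2 against 33.2 CPM and at 72.3 against 158 CPM.

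Genes of Treg identity were mixed in sign, and those past 1.5-fold were mostly lower. In Mito-high 1 of 22 measured genes was higher by 1.5-fold or more and 7 were lower, in Mito-low 1 was higher and 4 lower, and the medians were −0.20 and −0.07. Over all measured genes 15% were higher and 8.47% lower in Mito-high, and 2.72% and 2.75% in Mito-low. A ratio above 1 was found for 10 of the 22 genes in Mito-high and for 9 of 22 in Mito-low. Foxp3 stood at 30.7 against 25.5 CPM in Mito-high and at 50.3 against 39.6 CPM in Mito-low. Ikzf2, which encodes Helios, stood at 1521 against 1312 CPM and at 1746 against 1923 CPM. Il2ra, which encodes CD25, a chain of the interleukin-2 receptor, stood at 117 against 216 CPM in Mito-high and at 161 against 156 CPM in Mito-low, so it was lower in members of the first library and level in the second. Izumo1r, the folate receptor 4 of Treg cells, stood at 162 against 442 CPM and at 300 against 627 CPM, and Gpr83, a receptor of resting Treg cells, at 5.47 against 38.0 CPM and at 4.48 against 14.8 CPM.

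Of 14 measured suppressive and repair factors besides Il10, 6 were higher and 1 lower in Mito-high members, and of 16 in Mito-low 3 were higher and 2 lower, with medians of 0.34 and 0.03. Gzmb, which encodes the cytotoxic protease granzyme B, stood at 58.2 against 3.07 CPM in Mito-high and at 46.3 against 16.2 CPM in Mito-low (log2 ratios 4.24 and 1.52). It was not particular to members: cells that met all else but held 2 of Ccl5, Il10 and Klrg1 had 62.4 and 94.2 CPM. With members limited to cells without Ccl5, Il10 and Klrg1, the Gzmb ratios were 2.58 and 0.94, and with other cells limited to those without Igfbp4 and with at most 1 of the 3 genes they were 5.38 and 3.10. Few cells carried it: 14.9% of members and 0.79% of other cells in Mito-high (7.06% against 0.349% thinned), and 10.3% and 2.69% in Mito-low (5.93% against 1.55% thinned), beside 0 of the 22 B cell-like cells. Fgl2, a secreted suppressive factor, stood at 18.4 against 3.0 CPM and at 32.5 against 26.2 CPM. Furin, a protease that matures transforming growth factor beta, stood at 93.4 against 35.2 CPM and at 89.6 against 45.7 CPM.

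Genes typical of resting T cells and of homing to lymph nodes were lower. In Mito-high 13 of 18 measured genes were at least 1.5-fold lower and 1 higher in members, with a median of −1.38, and in Mito-low 6 of 16 were lower and 2 higher, with a median of −0.25. Igfbp4 itself marks resting T cells, and the rule kept Igfbp4-positive cells out of the members. Bcl2 stood at 54.7 against 394 CPM in Mito-high and at 49.3 against 179 CPM in Mito-low (log2 ratios −2.84 and −1.86). Satb1, a chromatin organiser of resting T cells, stood at 165 against 569 CPM in Mito-high and at 174 against 161 CPM in Mito-low. Il7r, the interleukin-7 receptor, was the higher one in Mito-high, at 246 against 143 CPM, and stood at 537 against 332 CPM in Mito-low. Ryr2, a calcium release channel gene, had the smallest shared ratio, at 1.94 against 23.5 CPM and at 6.60 against 37.5 CPM. Tbc1d4, a regulator of glucose transporter traffic, stood at 42.0 against 204 CPM and at 54.8 against 214 CPM.

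Early genes induced by the T cell receptor were lower as well, with 10 of 18 measured genes lower and 1 higher in Mito-high and 5 of 18 lower and 0 higher in Mito-low (medians −0.62 and −0.18). Jun, a subunit of AP-1, stood at 72.0 against 260 CPM in Mito-high and at 150 against 217 CPM in Mito-low. Egr1, an early growth response factor gene, stood at 15 against 50.4 CPM and at 28.5 against 58.2 CPM. Nr4a3, a nuclear receptor of recent receptor signalling, stood at 106 against 264 CPM and at 209 against 343 CPM. Dissociation and heat stress genes, which share members with this list, had medians of −0.41 and −0.28, and their part in it was not tested.

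Mitochondrial and copper genes had small median differences between members and other cells. Of 75 measured nuclear genes of the respiratory chain and ATP synthase, 8 were 1.5-fold higher and 0 lower in Mito-high members, and 0 were higher or lower in Mito-low members (medians 0.29 and 0.05). The 13 mt-encoded protein genes had medians of −0.17 and −0.20, with 0 past 1.5-fold in either library. Of 8 measured copper-handling genes, 3 were higher and 0 lower in Mito-high, and 0 were higher or lower in Mito-low (medians 0.31 and −0.06). Slc31a1, the main copper importer, stood at 10.8 against 11.5 CPM in Mito-high and at 10.1 against 12.4 CPM in Mito-low. Mt1, which encodes the metal-binding protein metallothionein 1, stood at 96.2 against 17.4 CPM in Mito-high and at 49.8 against 52.9 CPM in Mito-low (log2 ratios 2.47, interval 2.32 to 2.61, and −0.08, −0.24 to 0.06). Cox17, a copper chaperone of cytochrome oxidase, stood at 272 against 150 CPM and at 204 against 171 CPM. Atox1, the copper chaperone of the secretory pathway, stood at 261 against 165 CPM and at 199 against 172 CPM.

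**Figure D3:**
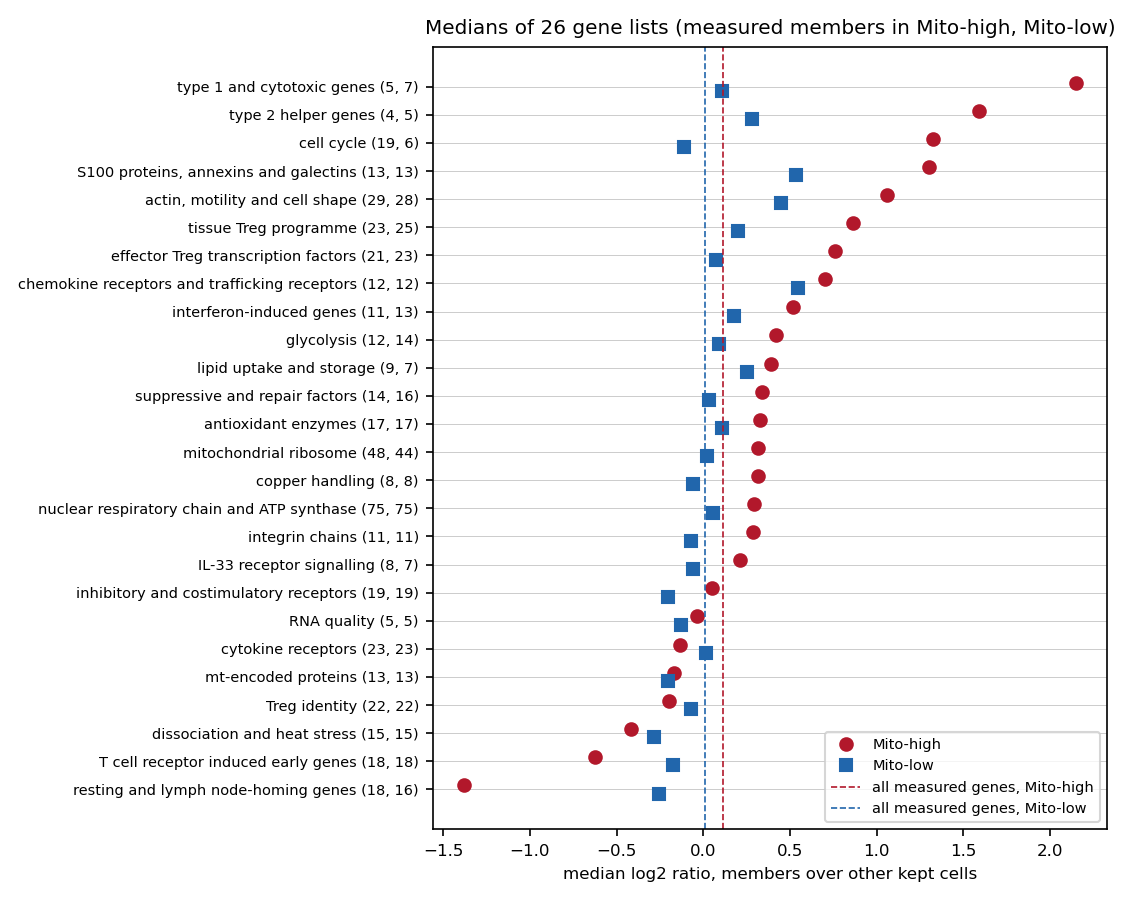
Median log2 ratio of each gene list for members over other kept cells in Mito-high (circles) and in Mito-low (squares), with the number of measured genes in brackets and the median of all measured genes of each library as a dashed line. The S100, annexin and galectin list lies at 1.30 and 0.54, and the resting list at −1.38 and −0.25.

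The members were also placed beside 2 other groups defined by the rule genes. Cells with at least 2 of Ccl5, Il10 and Klrg1 and no Igfbp4 (165 cells of Mito-high, 1530 of Mito-low) had S100a6 levels of 2808 CPM in the first library and 1038 CPM in the second, beside 3125 and 1529 CPM in members. Igfbp4-positive cells with none of the 3 (2634 and 165 cells) had 57.3 and 105 CPM. Lgals3 stood at 255 and 45.7 CPM in members, at 176 and 37.3 CPM in the Ccl5, Il10 and Klrg1 cells, and at 3.0 and 1.03 CPM in the Igfbp4-positive cells. Nebl stood at 190 and 156 CPM in members, at 66.1 and 44.6 CPM in the Ccl5, Il10 and Klrg1 cells and at 9.25 and 8.28 CPM in the Igfbp4-positive cells. Il18r1 had the same order, with 212 and 297 CPM, 99.2 and 155 CPM, and 30.5 and 30 CPM. Mt1 and Penk had another order, highest in the Ccl5, Il10 and Klrg1 cells of both libraries: Mt1 stood at 96.2 and 49.8 CPM in members, 130 and 132 CPM in those cells, and 10.2 and 10.3 CPM in the Igfbp4-positive cells. Penk stood at 18.2 and 72.3 CPM, at 136 and 287 CPM, and at 6.71 and 4.14 CPM.

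Cycling cells were common among Mito-high members. At least 3 of 10 cell cycle genes were detected in 137 of 624 members (22.0%, 18.8 to 25.4%) and in 5.12% of other cells of Mito-high, and in 14 of 1412 members (0.992%, 0.543 to 1.66%) and 0.575% of other cells of Mito-low. Cells with at least 2 of Ccl5, Il10 and Klrg1 and no Igfbp4 had shares of 22.4% (16.3 to 29.6%) in the first library and of 1.05% (0.599 to 1.69%) in the second, with intervals that overlapped those of the members. Cycling members were deep, with a median of 12676 UMIs against 7157 in the other Mito-high members. Thinned to 2000 UMIs, the shares were 9.31% of members against 2.29% of other cells in Mito-high and 0.429% against 0.133% in Mito-low. When only cells of 4000 to 8000 UMIs were taken, 5.86% of Mito-high and 0.460% of Mito-low members were cycling. The order of the 4 groups was the same unthinned and thinned, and the size of the shares moved with depth. By receptor, 26.3% of Mito-high members with Ccr2 only were cycling (21.0 to 32.1%), 20.6% of those with both receptors (15.1 to 27.1%) and 17.0% of those with Il1rl1 only (11.8 to 23.4%), with overlapping intervals.

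Mito-high members were then set against Mito-low members. Over 5832 genes, 462 (7.92%) were higher by 1.5-fold or more in Mito-high members and 594 (10.2%) lower, with a median log2 ratio of −0.09. With TMM scaling the split was 689 higher and 374 lower, and with the median set to 0 it was 649 and 395, so it gives no direction for the transcriptome as a whole. Among cells with a Malat1 share of 0.5 to 1.5% it was 330 and 222, with a median over all genes of 0.065. Without cycling cells, 255 of 5775 genes (4.42%) were higher and 386 (6.68%) lower. Mito-high members were deeper (7862 against 5022.5 UMIs), and Malat1, a nuclear RNA, made up a median of 0.465% of their UMIs against 1.77% in Mito-low members. Sorting gate and library cannot be told apart in this comparison.

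The highest ratios belonged to cell cycle genes. All 19 measured genes of that list were higher by 1.5-fold or more in Mito-high members, with a median log2 ratio of 3.12. Without cycling cells, 7 of the same 19 genes were higher and 1 lower, with a median of 0.23. Cycling cells were picked by cell cycle genes, Pclaf and Birc5 among them. A fall of such genes after the removal therefore follows from the choice of cells and is a description only. Pclaf, a clamp-associated replication factor gene, stood at 203 CPM in Mito-high members and 2.49 CPM in Mito-low members (log2 ratio 6.28, and 2.36 without cycling cells). Birc5, the mitotic survivin gene, had 146 against 5.23 CPM (4.77, and 2.36 without cycling cells). Stmn1, which encodes a microtubule regulator, had 383 against 18.7 CPM (4.35, and 2.48).

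The S100, annexin and galectin genes were higher in Mito-high members also without cycling cells. Of 13 measured, 6 were at least 1.5-fold higher and 0 lower, with a median of 0.54, and of 0.59 without cycling cells. Lgals3 stood at 255 CPM in Mito-high members and 45.7 CPM in Mito-low members (log2 ratio 2.48, interval 2.31 to 2.65, and 1.89 without cycling cells). Anxa2, which encodes annexin A2, stood at 233 against 45.7 CPM (2.35, and 1.87). Lgals1 stood at 2493 against 802 CPM (1.64, and 1.30), and S100a10 at 5161 against 2115 CPM (1.29, and 1.23). Among cells with a Malat1 share of 0.5 to 1.5%, the ratios were 1.18 for Lgals3, 1.13 for Anxa2, 0.64 for Lgals1 and 0.74 for S100a10, and the list's median was 0.27. The direction was therefore the same in that window and the size smaller. Ccr10 changed little, at 60.2 against 10.1 CPM with a ratio of 2.56, of 2.36 without cycling cells and of 2.22 in the Malat1 window.

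Genes of the resting list were mixed between the members of the libraries. Ccr7 stood at 79.2 CPM in Mito-high members against 38.5 CPM in Mito-low members (log2 ratio 1.04, interval 0.83 to 1.26). Of 15 measured genes of the resting list, 2 were higher and 2 lower, with a median of 0.14, so Ccr7 does not stand for the list. Il7r was lower in Mito-high members, at 246 against 537 CPM (−1.13).

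Some tissue Treg genes and suppressive factors were lower in Mito-high members. Of 25 measured genes of the tissue Treg programme, 0 were at least 1.5-fold higher and 9 lower, with a median of −0.39. Without cycling cells 1 was higher and 4 were lower, with a median of −0.25. Of 16 suppressive and repair factors, 1 was higher, Lgals1, and 9 were lower, with a median of −0.64 (−0.43 without cycling cells, where 1 was higher and 6 lower, and −0.28 in the Malat1 window). Penk stood at 18.2 CPM in Mito-high members and 72.3 CPM in Mito-low members (log2 ratio −1.98, −2.31 to −1.69), and Areg at 224 against 355 CPM (−0.66, −0.76 to −0.57). Foxp3 stood at 30.7 against 50.3 CPM (−0.71, −0.98 to −0.45), and at −0.31 in the Malat1 window. The share of cells with Foxp3 differed little, at 22.0% of Mito-high and 22.3% of Mito-low members. Thinned to equal depth, the shares were 8.03% (6.02 to 10.4%) and 8.65% (7.23 to 10.2%), with overlapping intervals. Of 22 Treg identity genes, 0 were higher and 8 lower, with a median of −0.46, but in the Malat1 window the median was 0.09, where Il2ra stood at 0.26 in place of −0.46 and Ctla4 at 0.06 in place of −0.27. No direction can be given for the Treg identity list.

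**Figure D4:**
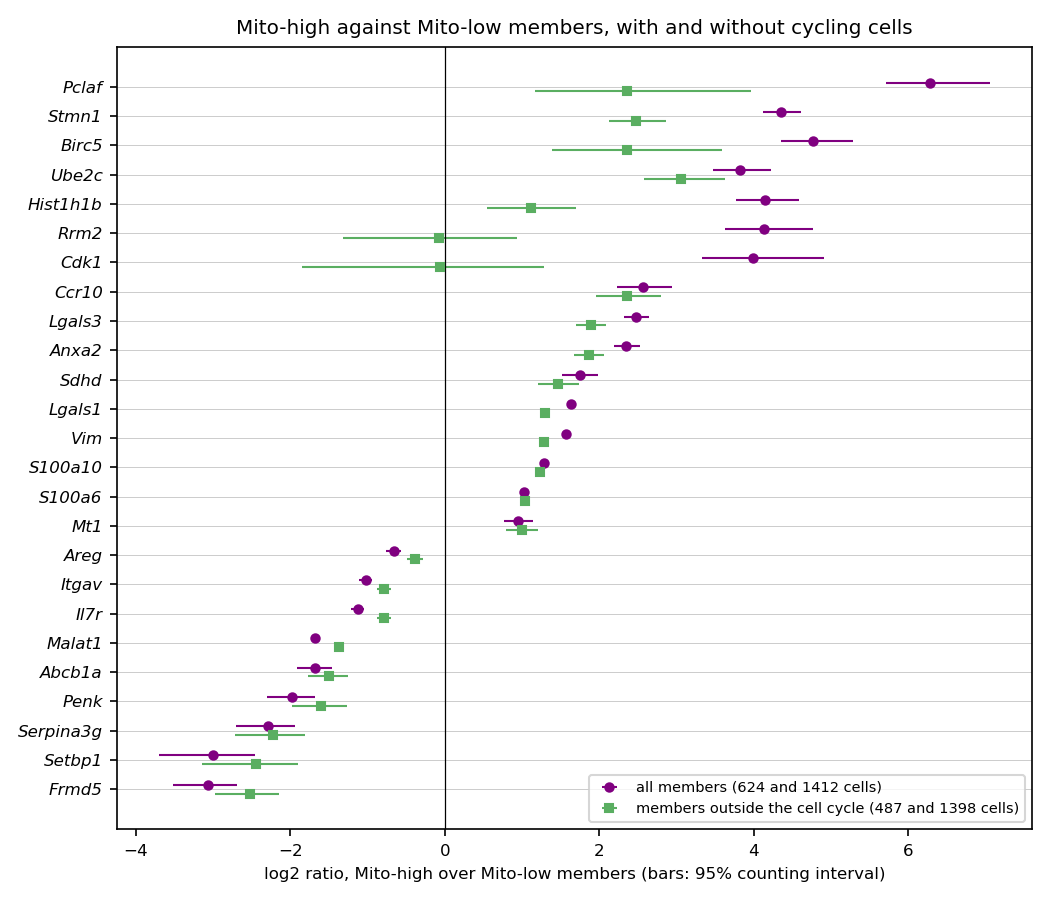
Log2 ratio between the members of the Mito-high library and those of the Mito-low library (Mito-high on top) for named genes, over all members and without cycling cells, with bars for exact conditional-binomial 95% intervals. Pclaf, one of the genes that picked cycling cells, lies at 6.28 over all members and at 2.36 without cycling cells. S100a6 lies at 1.03 and 1.04.

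Mitochondrial genes were of interest because the sort used a mitochondrial dye. Most of the nuclear ones listed here were higher in Mito-high than in Mito-low members, mainly by less than 1.5-fold, and the mt-encoded genes did not share this. Of 75 nuclear genes of the respiratory chain and ATP synthase, 11 were at least 1.5-fold higher and 0 lower, with a median of 0.37 beside −0.09 for all genes. A ratio above 1 was found for 69 of the 75, beside 2424 of 5832 over all genes. Without cycling cells the median was 0.27, and in the Malat1 window 0.03, below the 0.065 of all genes there. Of 48 mitochondrial ribosome genes, 15 were higher and 0 lower, and 45 had a ratio above 1. Their median was 0.48, 0.39 without cycling cells and 0.20 in the Malat1 window. Sdhd, a membrane subunit of succinate dehydrogenase, stood at 90.9 against 27.0 CPM (log2 ratio 1.75, 1.47 without cycling cells and 0.97 in the Malat1 window). The median of the 13 mt-encoded protein genes was 0.04, with 0 higher and 1 lower by 1.5-fold and 7 with a ratio above 1. Of 8 copper-handling genes, 2 were higher and 0 lower, with a median of 0.30. Mt1 was among the higher, at 96.2 against 49.8 CPM (0.95, 0.76 to 1.14), and at 0.36 in the Malat1 window. Slc31a1 stood at 10.8 against 10.1 CPM.

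The lowest ratios belonged to genes of varied roles. Frmd5, which encodes a membrane-skeleton adaptor, stood at 9.53 CPM in Mito-high members and 81.2 CPM in Mito-low members (log2 ratio −3.07, −3.52 to −2.69), and Setbp1, a nuclear protein gene, at 4.41 against 36.6 CPM (−3.0, −3.70 to −2.46). Serpina3g, a protease inhibitor of activated lymphocytes, stood at 11.5 against 57.0 CPM, and Abcb1a, a drug efflux pump gene, at 34.8 against 111 CPM. Malat1 itself stood at 5674 against 18184 CPM (−1.68). Early genes of the T cell receptor were lower too, with 9 of 17 lower and 0 higher and a median of −0.62, of −0.44 without cycling cells and of −0.16 in the Malat1 window.

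Members admitted by different receptors were not alike. Members with Ccr2 only were set against members with Il1rl1 only within each library, where depth hardly differed (medians of 7906 and 7814.5 UMIs per cell of Mito-high, and of 4951.5 and 5058 UMIs per cell of Mito-low). In Mito-high 187 of 5785 genes (3.23%) were at least 1.5-fold higher in the Ccr2-only members and 285 (4.93%) lower, and in Mito-low 152 of 5828 (2.61%) were higher and 232 (3.98%) lower. Of 5411 genes measured in both libraries, 38 (0.702%) were higher in both, which was 25.2% of the 151 higher in Mito-high and 32.2% of the 118 higher in Mito-low. A further 78 (1.44%) were lower in both, which was 31.7% of the 246 lower in Mito-high and 45.1% of the 173 lower in Mito-low. The genes named for this split were chosen after their values were seen. The rule allows only 1 of Ccl5, Il10 and Klrg1 in a member, and the sides held them unequally. From Ccr2-only to Il1rl1-only members, Klrg1 stood at 41.3 and 133 CPM in Mito-high and at 46.8 and 218 CPM in Mito-low. Ccl5 stood at 98.9 and 16.0 CPM and at 532 and 83.8 CPM, and Il10 at 42.2 and 40.7 CPM and at 126 and 43.8 CPM. The part of this limit of the rule in the split was not tested.

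Ccr2-only members carried more of the type 1 and cytotoxic genes. Of 6 measured genes of that list, 4 were higher in each library, with 0 lower in the first library and 1 in the second and median log2 ratios of 1.38 and 1.52. Gzmb stood at 72.4 CPM in Ccr2-only and 16.0 CPM in Il1rl1-only members of Mito-high, and at 69.7 and 15 CPM in Mito-low (log2 ratios 2.13, interval 1.58 to 2.83, and 2.19, 1.76 to 2.70). Members with both receptors had 78.9 and 61.1 CPM of Gzmb, near the Ccr2-only level for this gene. Nkg7, a cytotoxic granule protein gene, stood at 87.4 against 34.5 CPM in Mito-high and at 97.5 against 24.7 CPM in Mito-low. Cxcr3, a receptor for interferon-induced chemokines, stood at 81.0 against 29.6 CPM and at 88.2 against 36.9 CPM. Members with both receptors had 33.0 and 44.7 CPM of Nkg7 and 27.1 and 63.1 CPM of Cxcr3. These levels lay near the Il1rl1-only level in Mito-high and between the levels of the other members in Mito-low, so Gzmb does not stand for the list there.

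Several tissue Treg and repair genes were higher in Il1rl1-only members. Of the tissue Treg programme, 7 of 25 measured genes were lower and 2 higher in Ccr2-only members of Mito-high, and 13 of 27 were lower and 4 higher in Mito-low, with medians of −0.34 and −0.32. Of the suppressive and repair factors, 6 of 15 were lower and 1 higher in Ccr2-only members of Mito-high, and 6 of 16 were lower and 3 higher in Mito-low, with medians of −0.53 and −0.24. Areg stood at 158 CPM in Ccr2-only, 261 CPM in both-receptor and 280 CPM in Il1rl1-only members of Mito-high, and at 171, 423 and 511 CPM in Mito-low. Gata3 had the same order, with 130, 163 and 181 CPM in Mito-high and 140, 241 and 265 CPM in Mito-low. Ikzf2 did so too, with 1270, 1569 and 1833 CPM and 1246, 1897 and 2192 CPM. Cd81, a tetraspanin gene, stood at 28.1 CPM in Ccr2-only and 81.9 CPM in Il1rl1-only members of Mito-high, and at 22.9 and 98.1 CPM in Mito-low. Ccr8 stood at 8.10 against 23.4 CPM and at 14.2 against 37.2 CPM, and Bcl2l1, a survival gene, at 41.8 against 119 CPM and at 63.7 against 157 CPM. Foxp3 differed little, at 31.1, 31.8 and 29.0 CPM in Mito-high and 46.8, 48.6 and 54.7 CPM in Mito-low.

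**Figure D5:**
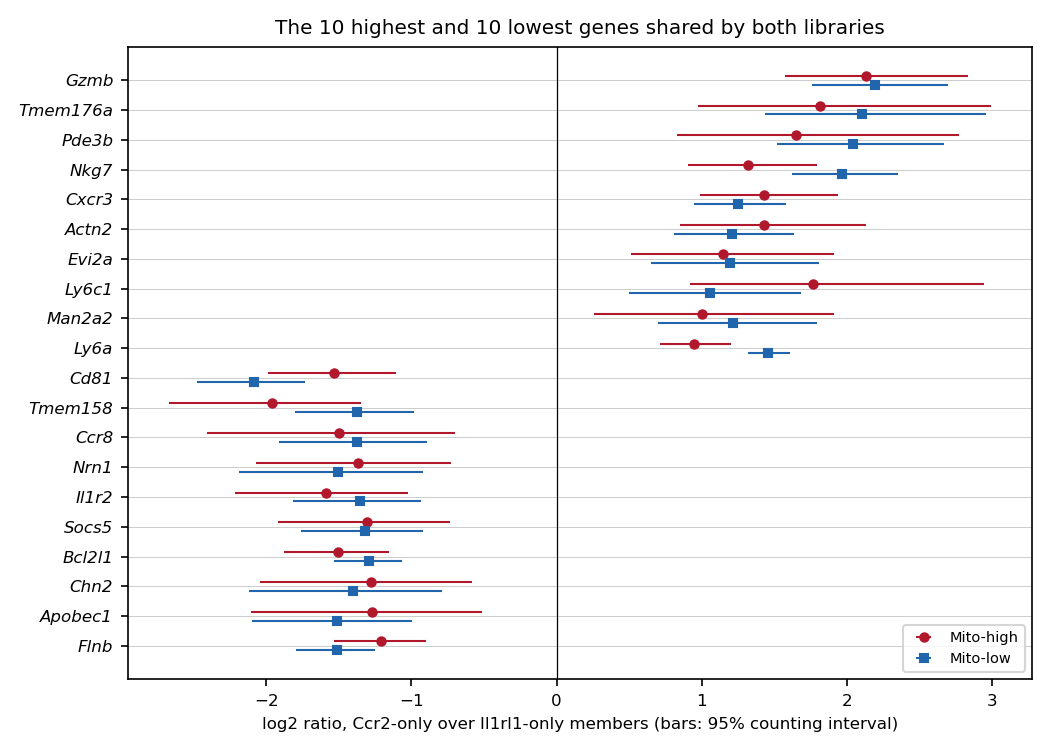
Log2 ratio of Ccr2-only over Il1rl1-only members in Mito-high and in Mito-low for the 10 highest and 10 lowest genes shared by both libraries, with bars for 95% intervals. Gzmb lies highest, at 2.13 and 2.19. The genes were picked for having the same sign in both libraries.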

How the data were processed

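The deposited matrices hold, per the file headers, a raw UMI count for each gene in each barcode, with 32285 features in each of the 2 libraries. The submitters' processing notes name Cell Ranger 7.1.0, Seurat 4.3.0.1 and mm10. The sources used here do not give how barcodes were filtered, whether intronic reads were counted or which annotation release served. The members and the gene lists were chosen with earlier results of these data known. UMIs were summed over the cells of each group and library and scaled to CPM, and log2 ratios were taken after adding 1 to each sum. Sums carry exact Poisson, ratios exact conditional-binomial and shares Clopper-Pearson intervals. Nothing was tested, because each group has 1 library, and no doublet caller was run. B cell-like cells had at least 3 of 6 B cell genes detected, and cycling cells at least 3 of 10 cycle genes. The 10 were Mki67, Top2a, Pclaf, Birc5, Ccna2, Ccnb2, Cdk1, Ube2c, Rrm2 and Tyms. Thinning drew 2000 UMIs per cell and left out shallower cells. Genes are named by rule: the 12 highest and 12 lowest shared by both libraries, the 12 highest and 12 lowest between the members of the libraries, up to 4 of each list, and chosen Treg, copper and marker genes. Igfbp4 excludes members by rule. The calculation was tested on simulated data. Positions come from GENCODE vM21 and start regions from RefSeq. Alternatives covered scaling, floors, cell filters, depth, thinning and the rule's thresholds. The Malat1 window and the removal of cycling cells were added after the data were seen. Python 3.11.15, numpy 2.4.6, scipy 1.17.1, pandas 2.3.3, matplotlib 3.10.9 and edgeR 4.0.16 (TMM factors only) under R 4.3.3 were used.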

Additional observations from a re-analysis of the deposited data

Results flagged for a closer look

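Il10, an anti-inflammatory cytokine gene that the rule allows in members only where Ccl5 and Klrg1 are absent, stood at 33.4 CPM in members and 14.7 CPM in other cells of Mito-high, and at 79.3 and 132 CPM in Mito-low. The log2 ratios of 1.19 in Mito-high and −0.73 in Mito-low point in opposite directions, which is why the gene is listed. The difference between the libraries was not tested. With other cells limited to those without Igfbp4 and with at most 1 of Ccl5, Il10 and Klrg1, the log2 ratio was 1.63 in Mito-high and 0.17 in Mito-low.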

How the results depend on the processing

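No paired analysis was possible because each group has 1 library. Mito-high and Mito-low members therefore differ by library, with unequal depth and Malat1 share, and differences within a library have no replicate. The Mito-low share of members was above the Mito-high share under every alternative run. Of 204 values of 12 list medians past 1.5-fold 0 changed sign, although smaller medians did, and of 2466 values of 165 gene ratios past 1.5-fold 17 did.

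The Mito-high and Mito-low shares of members were 4.08 and 13.6% at 4000 to 8000 UMIs, 2.70 and 7.03% with members chosen again on thinned counts, 2.79 and 5.57% without any of Ccl5, Il10 and Klrg1, 2.99 and 6.94% with Il1rl1 required and 3.67 and 7.25% with Ccr2 required. The Mito-low share was 10.03% at 4 or more S100a4 UMIs, and the Mito-high share 4.24% without cycling cells and 3.44% in the Malat1 window. The cycling share was 5.86 and 0.460% at 4000 to 8000 UMIs and 7.06 and 0.508% with members chosen again on thinned counts, 5.31% in the Malat1 window for Mito-high and 0.461% without the 3 genes for Mito-low.

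Counts of genes higher and lower moved with the floor and the fold. For members over other cells in Mito-high they were 3701 and 2368 without a CPM floor, 325 and 179 at 2-fold, and 934 were lower without mt-, ribosomal and receptor genes. In Mito-low they were 1806 and 1580 without a floor, 42 and 47 at 2-fold, 293 and 294 after thinning, and 244 were lower at a floor of 10 CPM. For Mito-high over Mito-low members they were 1375 and 2149 without a floor, 143 and 96 at 2-fold and 255 and 386 without cycling cells. Higher genes were 300 at 4000 to 8000 UMIs and 284 with cycling cells also left out, and lower genes 374 with TMM, 395 with the median at 0, 898 at 10 CPM and 222 in the Malat1 window. For Ccr2-only over Il1rl1-only members in both libraries they were 64 and 132 at 10 CPM, 180 and 253 without a floor, 13 and 22 at 2-fold, 76 and 126 at 4000 to 8000 UMIs and 79 and 141 after thinning, and 64 were higher in the Malat1 window. With a receptor required, this split could not be made.

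Sign changes of ratios past 1.5-fold were these. Without any of the 3 genes in members, Ccl5, Il10 and Klrg1 stood at −6.18, −5.62 and −5.57 in Mito-high and Klrg1 at −8.60 in Mito-low, by construction, and Frmd5 at −0.27 and −0.38. With Il1rl1 required, Birc5 stood at −0.93 in Mito-low and Ccl5 at −0.38 in Mito-high. With like cells for comparison, Il10 stood at 0.17 in Mito-low. Ttn stood at −0.17 in Mito-high at 4000 to 8000 UMIs, and Uhrf1 at −0.41 there after thinning and −0.90 without cycling cells. Between Mito-high and Mito-low members, Cdk1 and Rrm2 stood at −0.062 and −0.078 without cycling cells, which were picked partly by these genes. In the same comparison Hdac9 stood at 0.56 after thinning and 0.87 in the Malat1 window, and Klrg1 at 0.0095 after thinning. Under 1.5-fold, Mt1 in Mito-low stood at −0.08 and was 0.17 with Il1rl1 required, 0.45 with like cells for comparison and 0.29 in the Malat1 window, and Il2ra between the members was −0.46 and 0.26 in that window. Others under 1.5-fold are not listed. For all but the first group the cause was not tested.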

Other observations

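Interferon-induced genes were not part of any account above. Of 11 measured, 4 were higher by 1.5-fold or more and 0 lower in Mito-high members over other cells, with a median log2 ratio of 0.52, and of 13 in Mito-low 0 were higher and 2 lower, with a median of 0.18. Ifi27l2a, an interferon-induced membrane protein gene, stood at 3372 against 1655 CPM in Mito-high and at 2522 against 1997 CPM in Mito-low. Between the members of the libraries the list's median was −0.17, with 0 higher and 1 lower. Antioxidant enzymes had medians of 0.32 and 0.11 over other cells, and of 0.30 for Mito-high over Mito-low members, where 6 of 17 were higher and 1 lower. Txn1, the thioredoxin gene, stood at 524 CPM in Mito-high members and 234 CPM in Mito-low members.

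Genes next to the receptor genes of the rule were also high in members, an observation made after their values were seen. Ccr3 and Ccr1 belong to the chemokine receptor cluster around Ccr2. Ccr3 stood at 14.8 CPM in members and 0.499 CPM in other cells of Mito-high, and at 17.9 and 4.29 CPM in Mito-low, and Ccr1 at 2.29 and 0.0356 CPM and at 3.36 and 0.476 CPM. All of these lie under the floor of 20 CPM. Il18r1 and Il18rap, neighbours of Il1rl1, did not both follow it: Il18r1 stood at 256 CPM in Ccr2-only and 176 CPM in Il1rl1-only members of Mito-high and at 320 and 284 CPM in Mito-low, and Il18rap at 33.7 and 37.6 CPM and at 39.9 and 71.6 CPM.

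The transcript 1500009L16Rik, which the rule for named genes leaves out as a clone name, had the largest log2 ratio of members over other cells among measured genes in each library. It stood at 139.9 CPM in members and 6.23 CPM in other cells of Mito-high, and at 21.2 and 4.21 CPM in Mito-low (log2 ratios 4.49 and 2.33).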
